A study of Rattus norvegicus with 20 samples.

Results

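The endoplasmic reticulum stress and calreticulin genes were 10 named genes: Calr, Canx, Hspa5, Pdia3, Pdia4, Ddit3, Atf4, Trib3, Chac1 and Xbp1. A probe was taken for a gene when the array's gene name, in any case and without the ending _predicted, was that gene's symbol. This gave 10 probes for 9 of the 10 genes, 2 of them for Chac1. Xbp1 had no probe under that name and was not analysed here. All 9 genes were tested, among 24217 gene names with a probe above background.

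The arrays measured RNA from testes of Han Wistar rat foetuses. Dams received corn oil alone (the control), DEHP, MEHP, TOTM or a compound labelled only EHO, by daily gavage from gestation day 12 to gestation day 19. Each compound was given at 500 mg/kg, so doses were matched by mass. Each array held a pool of testes from several pups of a single litter, and there were 4 arrays in each of the 5 groups. DEHP is di(2-ethylhexyl) phthalate, a plasticiser, and MEHP is mono(2-ethylhexyl) phthalate, the monoester formed from it. TOTM is tris(2-ethylhexyl) trimellitate, a plasticiser used in place of phthalates. The first 2 MEHP replicates lay closer together than repeated spots of 1 array do (0.920 times that noise, against a median of 2.29 times for 2 arrays of a group) and were counted as 1 sample. That left n = 3 for MEHP and n = 4 for every other group.

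Each group occupied a slide of its own that was scanned on its own, and the effects of slide and compound cannot be told apart. The 4 EHO arrays had 46.1% to 63.5% of spots well above background, against 63.9% to 79.8% on the other 16 arrays. Markers of fetal Leydig cells and Sertoli cells were measured for all 6 of 6 genes of each list, and those of gonocytes for 4 of 5. Insl3, a fetal Leydig cell marker, had a value on only 2 of the 4 control arrays. In whole testes, fewer cells of a type and less RNA per cell cannot be told apart. A level below is the log2 processed signal minus the 75th percentile of its array. A gene was called when limma, fitted over all 5 groups, gave a Benjamini-Hochberg adjusted p under 0.05. The p-values rest on the spread among litter pools alone.

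The endoplasmic reticulum folds secreted and membrane proteins. Calreticulin (Calr) and calnexin (Canx) are lectin chaperones that hold newly made glycoproteins, and the disulphide isomerase Pdia3 works with both. Hspa5 (BiP) is the main Hsp70 chaperone of that compartment, and unfolded proteins titrate it away from the stress sensors. The sensors include ATF6 and the eIF2alpha kinase PERK, and another acts through XBP1. PERK favours translation of the transcription factor ATF4, which induces Ddit3 (CHOP), Trib3 and Chac1. In the testis, the calreticulin relative Calr3 is known for its role in sperm development, and fetal Leydig cells carry abundant endoplasmic reticulum for steroid synthesis.

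Sequences upstream of the genes are shown because chaperone genes are known to share a short element, the endoplasmic reticulum stress element, made of CCAAT and CCACG separated by 9 bases. RefSeq promoters on build GRCr8 were listed for 9 of the 10 genes (none for Pdia3), and the 250 bases before each gene's start were searched on both strands. An exact match was found upstream of 4 of the 9: Calr, Canx, Hspa5 and Xbp1. Among all 33469 promoter windows of that length, 22 (0.0657%) held such a match. In the 3 windows of measured genes printed here, capitals mark the 2 parts of the element, which in Calr lies on the opposite strand and so reads CGTGG and ATTGG. The Calr window is chr19:40213117-40213366 (plus strand), the Canx window is chr10:35157858-35158107 (minus strand) and the Hspa5 window is chr3:38452766-38453015 (plus strand).
Calr: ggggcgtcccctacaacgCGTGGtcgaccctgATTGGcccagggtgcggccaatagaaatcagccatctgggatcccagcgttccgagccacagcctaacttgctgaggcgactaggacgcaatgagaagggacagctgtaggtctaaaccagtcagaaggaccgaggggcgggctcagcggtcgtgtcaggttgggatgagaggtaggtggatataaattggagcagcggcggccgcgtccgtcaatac
Canx: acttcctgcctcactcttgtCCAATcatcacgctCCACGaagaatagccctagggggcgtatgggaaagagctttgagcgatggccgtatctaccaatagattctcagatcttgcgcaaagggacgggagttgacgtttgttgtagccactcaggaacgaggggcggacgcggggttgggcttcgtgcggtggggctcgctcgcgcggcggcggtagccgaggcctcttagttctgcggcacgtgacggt
Hspa5: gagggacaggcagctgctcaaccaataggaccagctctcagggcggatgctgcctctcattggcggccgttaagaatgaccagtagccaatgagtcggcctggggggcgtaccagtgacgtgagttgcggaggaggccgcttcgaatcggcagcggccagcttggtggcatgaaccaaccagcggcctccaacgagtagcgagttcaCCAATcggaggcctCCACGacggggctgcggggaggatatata
The match began 232 bases before the start of Calr, 230 before that of Canx and 43 before that of Hspa5. A second motif, TGATG followed after 1 base by AA, resembles the sites bound by ATF4 with C/EBP partners and was found upstream of Trib3 and Chac1. It was present in 3.40% of all windows. A related element, ATTGG and CCACG with 1 base between them (0.0418% of windows), and TGACGTGG (0.520%) were found upstream of 0 of the 9 genes. A match is a string of letters, and no factor's binding was measured here.

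Calr carried the largest difference among the 9 genes. The probe, annotated to rn4 chromosome 19 at 24967507 to 24967566, read 2.05, 1.53, 2.61 and 2.34 on the 4 control arrays. With EHO it read 4.28, 3.69, 3.18 and 3.25. The lowest EHO array lay above every control array. With DEHP it read 2.10, 2.52, 2.32 and 2.80, and with TOTM 2.66, 2.38, 2.18 and 2.64. With MEHP it read 2.60 and 2.66 on the averaged arrays, then 1.57 and 2.12. The DEHP, MEHP and TOTM arrays all overlapped the control arrays.

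Group means of the Calr level were 2.13 ± 0.46 (SD, n = 4) in control, 2.11 ± 0.53 (n = 3) with MEHP, 2.44 ± 0.30 (n = 4) with DEHP, 2.47 ± 0.23 (n = 4) with TOTM and 3.60 ± 0.51 (n = 4) with EHO. Calr rose with EHO by 1.46 ± 0.28 (log2 difference ± SE, 95% interval 0.87 to 2.05), which is 2.76-fold (limma, adjusted p = 0.00705). It was the 57th largest rise among 23897 genes. In that comparison the median of all genes was -0.18. The differences from control were 0.30 ± 0.28 with DEHP (adjusted p = 1), -0.03 ± 0.30 with MEHP (adjusted p = 0.990) and 0.33 ± 0.28 with TOTM (adjusted p = 0.847, limma). In order of level the groups ran MEHP, control, DEHP, TOTM and EHO, and only the step to EHO exceeded the spread between arrays.

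Before scaling, the Calr processed signal was 2330 to 4110 on the EHO arrays and 799 to 1870 on the control arrays, so the groups were apart without it. The EHO arrays with the highest Calr levels, replicates 1 and 2, also had the fewest spots above background, 46.1% and 50.4%. Without those 2 arrays the difference was 1.08 and missed the threshold (adjusted p = 0.0860, limma). In a fit of the EHO and control arrays alone it was 1.46 with an adjusted p of 0.129. Leaving out any single array gave 1.24 to 1.62, with adjusted p from 0.00335 to 0.0279.

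**Figure D1:**
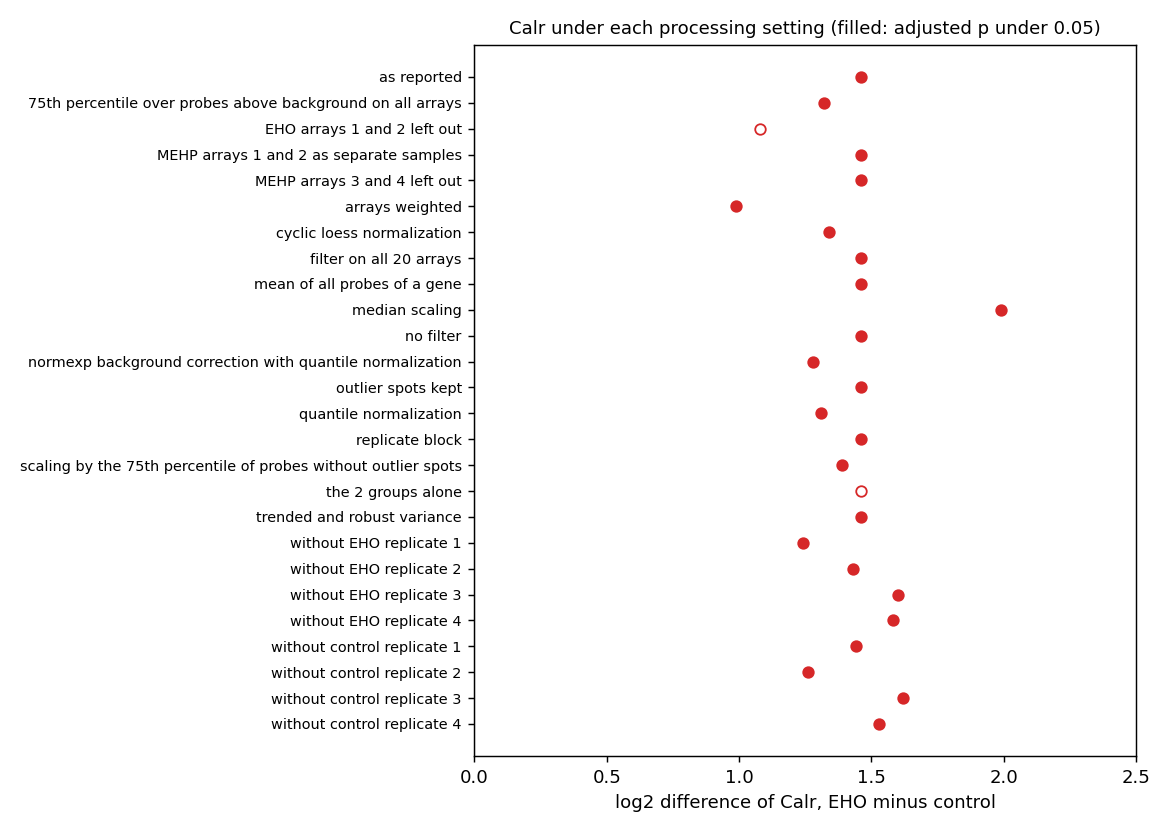
Log2 difference of Calr between EHO and control (x axis) as reported and under the other processing settings and with single EHO or control arrays left out (y axis); filled points have an adjusted p under 0.05. All points lie between 0.99 (arrays weighted) and 1.99 (median scaling), and the 2 open points are the fit of both groups alone and the fit without EHO arrays 1 and 2.

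Canx, the membrane-bound counterpart of calreticulin, was not called with any compound. Its levels were -0.49, 0.38, -1.04 and -0.58 in control, -0.49, -1.27, -1.36 and -1.11 with EHO, and -1.03, -1.11, -1.27 and -0.96 with TOTM. Both compounds overlapped control, where replicate 2 was highest and replicate 3 lowest. DEHP ran from -1.01 to -0.17. MEHP replicate 3, at 0.33, stood above the other MEHP arrays (-1.36 to -0.86). The differences from control were -0.62 ± 0.33 with EHO (adjusted p = 0.149), -0.66 ± 0.33 with TOTM (adjusted p = 0.612, limma), -0.15 ± 0.33 with DEHP and -0.19 ± 0.36 with MEHP.

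Pdia3, the isomerase that binds both lectins (rn4 chromosome 3, 108236022 to 108236081), was the other gene called. Its levels were 2.33, 2.17, 2.60 and 2.36 in control and 3.34, 2.90, 3.02 and 2.72 with EHO. All EHO arrays lay above all control arrays. DEHP ran from 2.38 to 2.71, MEHP from 2.18 to 2.57 and TOTM from 2.22 to 2.63, all overlapping control. Pdia3 rose with EHO by 0.63 ± 0.15 (95% interval 0.32 to 0.94), or 1.55-fold (limma, adjusted p = 0.0166). Differences were 0.20 ± 0.15 with DEHP, -0.02 ± 0.16 with MEHP and 0.00 ± 0.15 with TOTM. Before scaling, the EHO signals (1590 to 2140) overlapped those of control (1240 to 1860). The call was lost without EHO replicate 1 (0.52, adjusted p = 0.0558), without control replicate 1 (0.62, adjusted p = 0.0531) and without EHO arrays 1 and 2 (0.51, adjusted p = 0.163). It was also lost with arrays weighted (0.50, adjusted p = 0.0836) and in a fit of the 2 groups alone (0.63, adjusted p = 0.184).

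Pdia4, another disulphide isomerase of the lumen, was not called with any compound and varied widely within groups. Control arrays read 1.0, 2.44, 1.12 and 1.81, and EHO arrays 2.48, 1.59, 1.33 and 1.15. The groups overlapped. TOTM had the lowest mean, 1.11 ± 0.41 (n = 4) against 1.59 ± 0.67 (n = 4) in control, a difference of -0.48 ± 0.35 (limma, adjusted p = 0.771). MEHP replicate 3 (2.45) and control replicate 2 (2.44) were the highest arrays of their groups for Pdia4, as they were for Canx, and the lowest of their groups for Calr (1.57 and 1.53).

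Hspa5, the chaperone whose rise is the usual sign of the unfolded protein response, read 4.89, 4.92, 5.32 and 5.24 in control. With EHO it read 6.14, 5.62, 5.20 and 4.95, so replicates 1 and 2 lay above control and replicates 3 and 4 within it. With DEHP, replicate 4 (5.77) was above control and the others (4.86 to 5.26) were not. MEHP (4.95 to 5.16) and TOTM (4.92 to 5.22) stayed inside the control range. The difference with EHO was 0.38 ± 0.22 (95% interval -0.09 to 0.86, limma, adjusted p = 0.191). With DEHP it was 0.13 ± 0.22, with MEHP -0.07 ± 0.24 and with TOTM -0.01 ± 0.22.

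**Figure D2:**
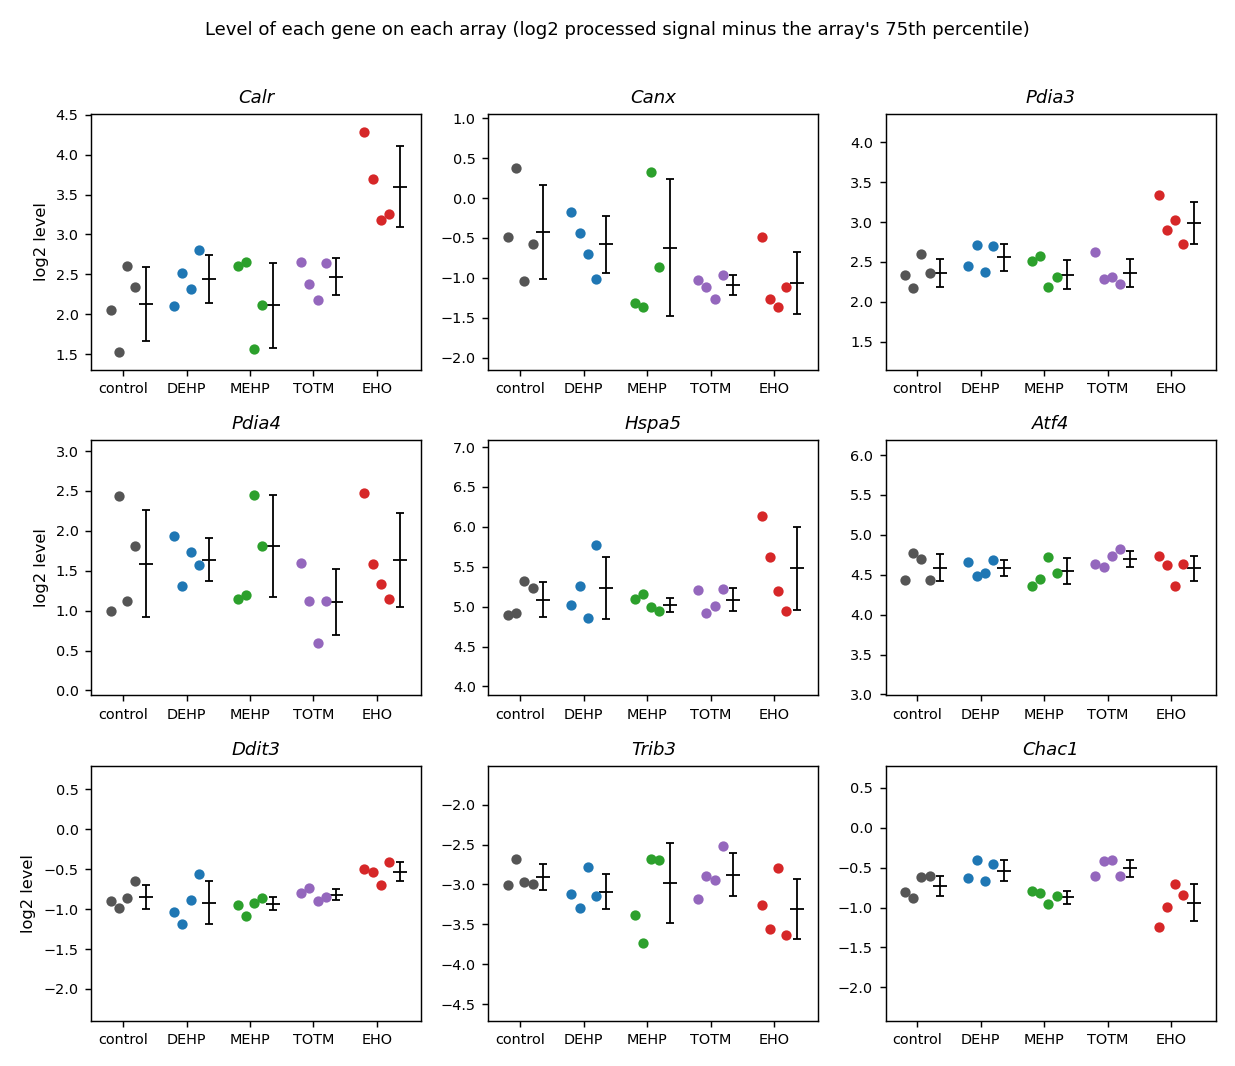
Log2 level of each measured gene (y axis, log2 processed signal minus the 75th percentile of its array) on each of the 20 arrays (points, by replicate within control, DEHP, MEHP, TOTM and EHO); the black mark and bar give the mean and SD over samples, with MEHP 1 and 2 averaged. The panels span the same height, and Calr and Pdia3 are the genes whose EHO points lie wholly above control.

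None of the 4 measured genes of the PERK and ATF4 branch was called against control, but Trib3 could not be judged with EHO. Atf4 itself, whose protein is controlled largely at translation, had a mean level of 4.59 ± 0.17 (n = 4) in control and 4.58 ± 0.16 (n = 4) with EHO. Its difference with EHO was 0.00 ± 0.11, with an interval from -0.25 to 0.24. The other compounds gave 0.00 ± 0.11 (DEHP), -0.04 ± 0.12 (MEHP) and 0.11 ± 0.11 (TOTM). The EHO value depended on the scaling. Over 37 alternative settings it ran from -0.16 to 0.52 and was called in 0. Before scaling, all EHO signals of Atf4 (5230 to 6270) lay below those of control (7550 to 7970).

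Ddit3, the death-promoting factor CHOP (rn4 chromosome 7, 67251675 to 67252036), read -0.90, -0.99, -0.86 and -0.65 in control and -0.50, -0.53, -0.70 and -0.41 with EHO. The highest control array lay above the lowest EHO array. The difference with EHO was 0.32 ± 0.12 (95% interval 0.06 to 0.58, adjusted p = 0.0631, limma), short of the threshold. It passed the threshold under only 6 of 37 alternative settings. Over all 37 it ran from 0.17 to 0.85 (limma, adjusted p from 0.0182 to 0.408). The 6 included quantile normalization (0.44, adjusted p = 0.0280), normexp correction (0.25, adjusted p = 0.0361), cyclic loess (0.49, adjusted p = 0.0274) and median scaling (0.85, adjusted p = 0.0182). The others were the fits without EHO replicate 3 (0.37, adjusted p = 0.0342) and without DEHP replicate 4 (0.32, adjusted p = 0.0492). Before scaling, the EHO signals of Ddit3 (148 to 191) lay within the range of control (139 to 224). With DEHP, MEHP and TOTM the differences were -0.07 ± 0.12, -0.08 ± 0.13 and 0.03 ± 0.12.

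Chac1, a glutathione-degrading enzyme induced by ATF4, read -0.80, -0.88, -0.62 and -0.61 in control. With EHO it read -1.24, -0.99, -0.70 and -0.84, and with TOTM -0.60, -0.42, -0.41 and -0.61. DEHP ran from -0.67 to -0.40 and MEHP from -0.96 to -0.79. No difference from control was called: the differences were -0.21 ± 0.12 with EHO (adjusted p = 0.169), 0.22 ± 0.12 with TOTM (adjusted p = 0.647, limma), 0.19 ± 0.12 with DEHP and -0.15 ± 0.13 with MEHP. The second Chac1 probe was well above background on 9 of 20 arrays and was not tested. Its mean differences were 0.19 with DEHP, -0.03 with MEHP, 0.14 with TOTM and -0.55 with EHO.

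Trib3, a pseudokinase induced by ATF4 and CHOP, was near the limit of detection. Its probe was well above background on all 4 control arrays, on 1 of 4 with DEHP, 2 of 4 with MEHP, 2 of 4 with TOTM and 0 of 4 with EHO, so it passed the filter through control alone. With EHO the mean measured level was -3.31 ± 0.38 (n = 4) against -2.91 ± 0.16 (n = 4) in control. The detection floor of the EHO arrays, a mean of -2.76, lay above the control level, so no fold, difference or test is read for it. Mean levels were -3.09 ± 0.22 (n = 4) with DEHP, -2.98 ± 0.50 (n = 3) with MEHP and -2.88 ± 0.27 (n = 4) with TOTM, all overlapping control.

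**Figure D3:**
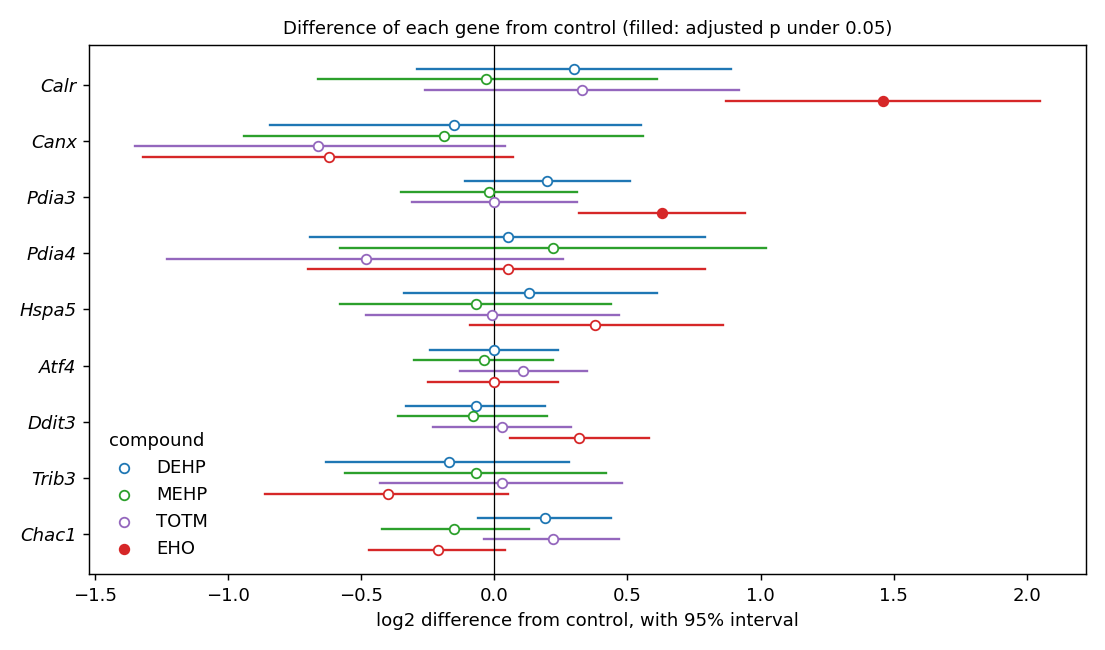
Log2 difference of each measured gene from control (x axis, point with 95% interval) for DEHP, MEHP, TOTM and EHO (colours); filled points have an adjusted p under 0.05. The filled points are Calr (1.46) and Pdia3 (0.63) with EHO; Trib3 was above background on 0 of 4 EHO arrays and its points are not read.

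Counted over the 9 genes, limma called 0 with DEHP, where 0.00418% of all genes were called. It called 0 with MEHP (0.946% of all genes) and 0 with TOTM (0.00837% of all genes). At an unadjusted p under 0.05 the counts were also 0 with each of the 3, where 591, 1272 and 1961 of 23897 genes reached that level with DEHP, MEHP and TOTM. No gene of the 9 had non-overlapping arrays with these compounds, against 2.92% of all genes with DEHP, 10.3% with MEHP and 7.23% with TOTM. With EHO, 2 of 9 (22.2%) were called, next to 24.8% of all genes. The 9 include Trib3, which was above background on 0 of 4 EHO arrays and could not be judged there. With DEHP it was above background on 1 of 4 arrays, and with MEHP and TOTM on 2 of 4 each. Its part in those counts of 0 is therefore weak. Both the count and the background moved with the processing. The count was 3 of 9, with Ddit3 added, under quantile normalization (18.5% of all genes called), normexp correction (17.5%), cyclic loess (21.2%) and median scaling (34.5%). Without EHO arrays 1 and 2 it was 0 of 9, with 0.899% of all genes called. As reported, both genes were higher, a direction called in 6.45% of all genes. The members were chosen with earlier results of these data known, so no enrichment is read from either share. The same 2 of 9 had non-overlapping arrays, against 13.4% of all genes. The median difference of the 9 genes with EHO was 0.05, against -0.18 for all genes. That median counts Trib3, whose difference is not read. With Trib3 left out, the median of the members lies between 0.05 (Pdia4) and 0.32 (Ddit3). Among genes above background on all 20 arrays, which leave out Trib3, 14.6% were called and the median was 0.037. Under quantile normalization the median of all genes was -0.04.

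The authors' deposited table, which lists probes with p up to 0.00999, gave EHO folds of 2.53 for Calr (p = 5.7e-06), 1.47 for Pdia3 (p = 0.00012) and 1.41 for Ddit3 (p = 7.34e-05), under a heading that shortens the compound to EH. The authors' deposited table also listed Chac1 with TOTM at 1.20 (p = 0.00782). No other value of the 9 genes was taken from it. In all it listed 4210 probes with EHO and 3298 with TOTM. Its p-values are the authors' own and are not the adjusted limma values given above.

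The compounds were then compared with each other, in 6 pairs at the same dose and days. Calr was higher with EHO than with DEHP by 1.16 ± 0.28 (95% interval 0.57 to 1.75, adjusted p = 0.0243), than with TOTM by 1.13 ± 0.28 (0.54 to 1.72, adjusted p = 0.0146) and than with MEHP by 1.49 ± 0.30 (0.86 to 2.13, adjusted p = 0.0495, limma). Pdia3 was higher with EHO than with TOTM by 0.63 ± 0.15 (adjusted p = 0.0108). Against DEHP it differed by 0.43 ± 0.15 (adjusted p = 0.0731) and against MEHP by 0.65 ± 0.16 (adjusted p = 0.0720, limma), neither past the threshold. Chac1 was lower with EHO than with TOTM, at -0.43 ± 0.12 (adjusted p = 0.0249), and the difference from DEHP was -0.40 ± 0.12 (adjusted p = 0.0523, limma).

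Of the 9 genes, 1 was called between EHO and DEHP (6.62% of all genes), 1 between EHO and MEHP (0.281%) and 3 between EHO and TOTM (21.6%). Without EHO arrays 1 and 2 each of these 3 counts was 0. The count against DEHP was also 0 without EHO replicate 1 or 2 or DEHP replicate 1, 2 or 3. That against MEHP was 0 in 14 of the 20 fits that left out a single array, including those without EHO replicate 1 or 2 or MEHP replicate 3 or 4. That against TOTM was 1 without EHO replicate 1 and 2 without EHO replicate 2, TOTM replicate 2 or TOTM replicate 3. The counts were 0 between MEHP and DEHP (1.12% of all genes), 0 between TOTM and MEHP (1.52%) and 0 between TOTM and DEHP (0% of all genes, 729 of 24217 at an unadjusted p under 0.05). At that unadjusted level MEHP against DEHP had 1 of the 9 genes (1350 of all 24217), TOTM against MEHP had 1 (3365 of 24217) and TOTM against DEHP had 0. The 1 gene was Chac1 in both: MEHP minus DEHP was -0.33 ± 0.13 (adjusted p = 0.620) and TOTM minus MEHP 0.36 ± 0.13 (adjusted p = 0.218, limma). For Calr the diester and its monoester differed by -0.33 (MEHP minus DEHP, 95% interval -0.96 to 0.31), and TOTM minus DEHP was 0.03 (-0.56 to 0.62). For Hspa5 these differences were -0.20 (-0.72 to 0.31) and -0.14 (-0.61 to 0.34).

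Other genes of the pathway were taken in 5 lists, 109 genes in all, of which 87 had a probe above background and 86 were tested against control. None was called with DEHP, MEHP or TOTM, where 3, 7 and 7 of the 86 had an unadjusted p under 0.05 (limma), next to 591, 1272 and 1961 of all 23897 genes. With EHO, 5 of 86 were called higher and 9 lower, next to 6.45% and 18.3% of all genes. Of the 9 lower, Pdia2, Gdf15, Bcl2l11 and Cth were above background on 2 of 4 EHO arrays and Psat1 on 3. Their EHO levels on the remaining arrays are bounds. The median over the 86 was 0.07, against -0.18 for all genes. The split depends on the scaling: median scaling, which moves the median of all genes to 0.35, called 29 higher and 2 lower of the 86, with 34.5% of all genes called. The median of the 86 was 0.03 under quantile normalization, against -0.04 for all genes. It was 0.08 against -0.02 under cyclic loess and 0.04 against -0.02 with normexp correction. Without EHO arrays 1 and 2 it was 0 against -0.05, and 0 of the 86 were called.

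In the calnexin and calreticulin cycle, 1 of 9 rose and 1 fell with EHO. Lman1, a lectin that carries glycoproteins to the Golgi, rose by 0.46 ± 0.14 (adjusted p = 0.0347), from 2.37 ± 0.08 to 2.83 ± 0.31 (n = 4 each). Calr3, the testis-specific calreticulin, fell by 0.75 on the log2 scale (SE 0.18, adjusted p = 0.0199, limma). The directions of both held under each scaling tried, although Calr3 was not called under median scaling (-0.22) or normexp correction (-0.24), nor Lman1 under quantile (0.31) or cyclic loess (0.34) normalization or the percentile over probes above background (0.31). With TOTM, Lman1 had the largest difference of that list, -0.46 ± 0.14 (adjusted p = 0.394, limma), and its TOTM arrays (1.73 to 2.06) lay below those of control (2.29 to 2.45). Mogs (0.14) with DEHP and Calr3 (-0.27) with MEHP led the list without a call.

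Of 22 other chaperones and oxidoreductases, 2 rose and 2 fell with EHO. Rcn1, a calcium-binding protein of the lumen, rose by 0.67 ± 0.20 (adjusted p = 0.0344), and P4hb, the founding disulphide isomerase, by 0.61 ± 0.16 (adjusted p = 0.0267, limma). All P4hb arrays with EHO (4.92 to 5.37) lay above control (4.31 to 4.87), though P4hb was not called under quantile normalization (0.46, adjusted p = 0.0702) or cyclic loess (0.46, adjusted p = 0.0662). Rcn1 was not called with the percentile over probes above background (0.53, adjusted p = 0.0591). Pdia2, a tissue-restricted isomerase, fell by 1.85 on the log2 scale (SE 0.56, adjusted p = 0.0359), with 2 of its 4 EHO arrays above background. It was -0.67 with normexp correction, still called, and -0.55 without EHO arrays 1 and 2 (adjusted p = 0.334). Sil1, a nucleotide exchange factor for Hspa5 named after its value was seen, fell by 0.56 on the log2 scale, but was -0.03 under median scaling (adjusted p = 0.854) and -0.20 without EHO arrays 1 and 2 (adjusted p = 0.544). Pdia5 had the largest uncalled difference of that list with DEHP (0.57), MEHP (-0.54) and TOTM (0.72).

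Among 13 sensors and their processing factors, 1 rose and 1 fell with EHO. Creb3l1, a membrane-bound transcription factor related to ATF6, rose by 0.56 ± 0.10 (adjusted p = 0.0061), from 0.61 ± 0.05 to 1.17 ± 0.19 (n = 4 each), with no overlap. It was called under each of the 5 other scalings, but not without EHO arrays 1 and 2 (0.42, adjusted p = 0.103). Creb3l3, its liver-type relative, fell by 1.08 on the log2 scale (SE 0.32, adjusted p = 0.0340, limma), and by 0.34 without EHO arrays 1 and 2 (adjusted p = 0.484). Atf6b with DEHP (0.37), Ern2 with MEHP (-0.47) and Traf2 with TOTM (0.49) led this list without a call. None of 12 degradation genes was called with EHO; the largest difference was that of the ubiquitin ligase Syvn1 (0.35 ± 0.16, adjusted p = 0.0993, limma). For the other compounds the largest were Nploc4 with DEHP (0.28), Ube2g2 with MEHP (-0.24) and Selenos with TOTM (-0.43).

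Of 30 ATF4 and CHOP targets, 1 rose and 5 fell with EHO, with a list median of -0.11. The largest falls among the called genes were those of the stress cytokine Gdf15, by 1.07 (SE 0.35, adjusted p = 0.0426), the pro-apoptotic Bcl2l11, by 0.93 (SE 0.31, adjusted p = 0.0419), and the cysteine-forming enzyme Cth, by 0.65 (SE 0.23, adjusted p = 0.0476, limma), all on the log2 scale. Each of these 3 was above background on 2 of 4 EHO arrays, and Psat1, named below, on 3 of 4. Under cyclic loess the 3 differed by -0.37, -0.19 and 0.07 and none was called, and Cth thus changed sign. The other called genes, named after their values were seen, were the tRNA synthetase Eprs1 (0.40, but not called at 0.24 under quantile or cyclic loess, 0.28 with normexp correction or 0.25 with the percentile over probes above background), the serine-pathway enzyme Psat1 (-0.59, but 0.06 with normexp correction) and the amino acid transporter Slc7a5 (-0.53, but 0 under median scaling). Stc2, a secreted glycoprotein, had the largest difference with DEHP (-1.45 ± 0.40, adjusted p = 0.831) and with MEHP (-1.62 ± 0.43, adjusted p = 0.131, limma). With EHO it differed by -0.86 ± 0.40 (adjusted p = 0.106, limma). With TOTM it was the phosphatase subunit Ppp1r15a (0.58 ± 0.25, adjusted p = 0.590, limma).

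**Figure D4:**
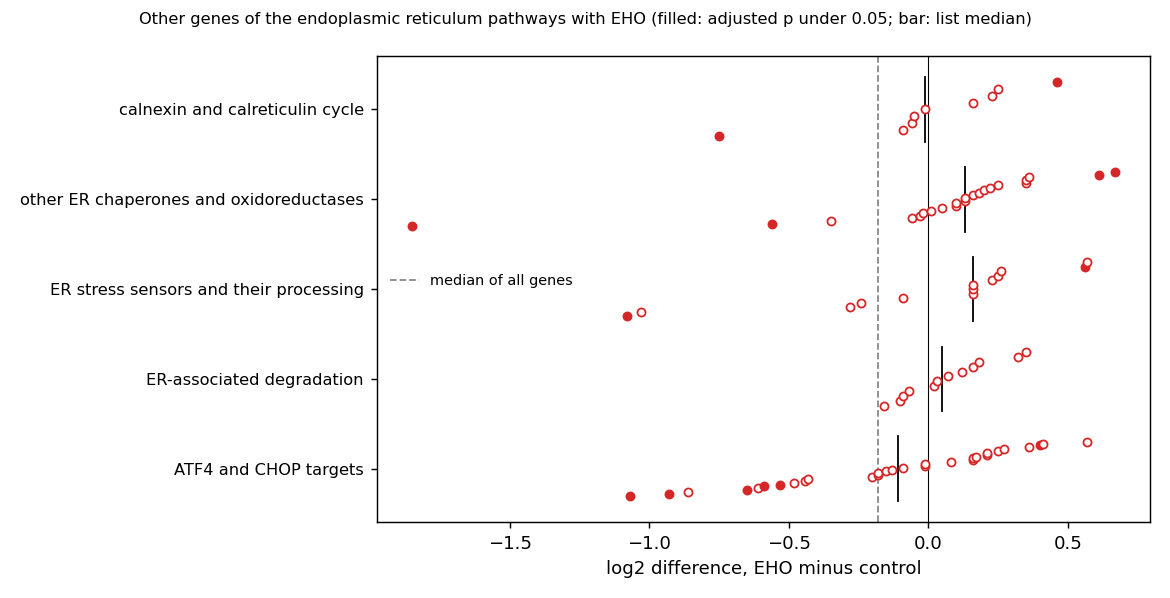
Log2 difference between EHO and control (x axis) of 86 further genes in 5 lists (rows); filled points have an adjusted p under 0.05, black bars are list medians and the dashed line is the median of all genes (-0.18). The called genes lie on both sides of 0: 5 higher and 9 lower. Among the lower, Pdia2, Gdf15, Bcl2l11, Cth and Psat1 were not above background on every EHO array.

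Some cell type markers were called with EHO as well, where 24.8% of all genes were called (6.45% higher and 18.3% lower). Whether any marker list was called more often than all genes was not tested. The 3 measured peritubular and interstitial markers of 5 all rose, with a mean level of 1.33 to 2.20 on EHO arrays and 0.71 to 1.29 on control arrays. The 2 measured erythroid markers were not called, at 3.30 to 4.68 against 2.89 to 3.42. Of 6 fetal Leydig cell markers 1 fell, and the list's mean level was 2.64 to 3.18 against 3.16 to 3.43. Insl3 (5.48 in control) lacked a value on some control arrays, whose list means are lower for it. The 2 ranges therefore do not rest on the same genes. Of 2 measured adrenal cortex markers 1 fell, with a list mean of -3.06 to -1.37 against -1.14 to -0.89. The EHO detection floor given for Trib3 was a mean of -2.76. Below it lay the EHO means of Lhcgr (-2.86 ± 0.36), Cyp11b2 (-3.57 ± 1.58), Cd163 (-3.65 ± 1.28) and Pecam1 (-3.27 ± 1.36, n = 4 each). Such levels may be bounds, and the EHO values of the Leydig, adrenal, macrophage and endothelial lists rest partly on them. Sertoli cell markers (1.68 to 2.23 against 2.14 to 2.28) had 1 of 6 higher, mesonephric duct 1 of 2 higher, macrophage 1 of 4 lower, and gonocyte (4) and endothelial (3) markers had none called. With DEHP, MEHP and TOTM none of these markers was called singly. The fetal Leydig cell list nonetheless lay wholly below control with DEHP (2.24 to 2.73) and ran from 1.09 to 3.68 with MEHP, with medians of -0.91 and -0.97 against -0.58 with EHO. The adrenal cortex list was at -2.72 to -1.91 with DEHP. The part of these shifts, and of the lower share of detected spots, in the rise of Calr and Pdia3 was not tested.

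The genes whose pattern was most like that of Calr were ranked by the root mean square difference from Calr over 19 samples, each gene centred on its control mean, among 4782 genes with a symbol and above background on every array. The 5 nearest were Irf2bpl (0.354), Rest (0.365), Erbb2 (0.368), Akt1 (0.387) and Gabrq (0.387). Their differences between EHO and control were 1.07, 1.0, 0.94, 0.88 and 1.04. The ranking used the EHO arrays, so a rise with EHO follows from the choice and is no separate result.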

How the data were processed

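The deposited arrays hold, per the file headers, 1-colour intensity values from Agilent Feature Extraction, which the submitters' processing notes give as version 9.5, with probe coordinates on rn4. The authors' deposited table gives a signed fold (a score) and a p-value per probe and compound. Spots marked as outliers were left out (1.24% to 1.27% of spots on control arrays, at most 0.332% on the others). The log2 processed signal minus the array's 75th percentile was used. Probes were kept if some group had them well above background throughout (28133 of 41012), and the brightest probe of a gene name was tested. limma 3.58.1 (R 4.3.3) fitted 1 mean per group over 19 samples, with 14 residual degrees of freedom. The script was tested on simulated data. The number of arrays limits the precision. All members were named, with up to 3 called genes per list and compound, or the one of largest fold where none was called. The members and lists were chosen with earlier results of these data known. Replicate numbers did not pair samples (deviations correlated from -0.683 to 0.488). Alternatives changed the background correction, scaling, filter, probe choice, variance model, weights and arrays used. A percentile over probes without outlier spots, used in a first run and replaced after its results were seen, is an added alternative, as are the alternatives run on the pathway lists.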

Additional observations from a re-analysis of the deposited data

Results flagged for a closer look

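In 1 of 36 sets of 4 arrays examined (9 genes in 4 groups), a single array stood far from the others. This was Trib3 in control, where replicate 2 read -2.68 and the other 3 arrays read -3.01 to -2.97. Chance flags about 1 in 20 such sets. MEHP, with 3 samples, was not examined.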

How the results depend on the processing

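Calr with EHO kept its direction under all 37 alternatives and its call under 35; it was 1.46 in a fit of the 2 groups alone (adjusted p = 0.129) and 1.08 without EHO arrays 1 and 2 (adjusted p = 0.0860). Of the 1328 values of all members and compounds, 1314 kept their side of the threshold and 0 reversed a call; 67 uncalled values changed sign. Members called with DEHP, MEHP and TOTM stayed 0 under all alternatives, as between TOTM and DEHP. With EHO against control (2), the count was 3 under normexp with quantile, quantile, loess and median scaling, 1 with arrays weighted, 0 in the 2 groups alone, 0 without EHO arrays 1 and 2, and 1 to 4 with single arrays left out (the 4, without EHO replicate 3, counts Trib3, which is not above background with EHO). Against DEHP (1) it was 2 under normexp with quantile, quantile, loess, median scaling and MEHP 1 and 2 as separate samples, 3 with the filter on all 20 arrays, 0 in the 2 groups alone and without EHO 1 and 2, and 0 to 3 with single arrays left out. Against MEHP (1) it was 2 with that filter, weights or MEHP 1 and 2 separate, 0 under median scaling, the percentile over probes above background, the 2 groups alone, the replicate block, and without EHO 1 and 2 or MEHP 3 and 4, and 0 to 2 with single arrays left out. Against TOTM (3) it was 5 under loess, 0 in the 2 groups alone and without EHO 1 and 2, and 1 to 5 with single arrays left out. With weights it was 1 for MEHP against DEHP and 2 for TOTM against MEHP. With replicate number as a block, Calr was 1.46 (adjusted p = 0.0112); the block changed no other call of a member against control. The percentile without outlier spots (chosen after seeing the data) gave 8109 in place of 5920 genes called with EHO, moved the median of all genes from -0.18 to -0.25, and gave Calr 1.39. That count was 696 with weights, 693 without control replicate 1, 796 without EHO replicate 1, 10413 without EHO replicate 4, 10470 with no filter, 2155 with the filter on all 20 arrays and 3 in the 2 groups alone. Trib3 could not be tested with that filter. Fits that leave out samples have fewer degrees of freedom. Leaving out a single EHO array nonetheless gave 796 (replicate 1), 1011 (replicate 2), 9917 (replicate 3) or 10413 (replicate 4) genes called with EHO. The count thus moved with the array left out, and the causes were not tested. Where few EHO arrays had a probe above background, the level there is a bound.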
